A study of Mus musculus with 12 samples.

Results

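The introns described here were retained introns of at least 150 nucleotides (nt) whose splice sites were both annotated, in murine erythroblasts. They were taken from a table of splicing events as the rows of the intron retention type with annotated splice sites only, a variable part of 150 nt or more and a single chromosome position. The rule found 2905 introns among 19323 events of all kinds, which include 5945 intron retention events. Among the other intron retention events, 1681 were shorter annotated introns and 1359 had an unannotated site. The members came from 1714 gene entries, of which 1062 held a single one and Uba7, the ubiquitin-like modifier activating enzyme of ISG15, held 10.

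The cells were G1E-ER4, a murine proerythroblast line that lacks GATA1 and carries GATA1 fused to the ligand-binding part of the estrogen receptor, which makes differentiation depend on estradiol. RNA was poly(A)-selected after 24 h of estradiol from Sf3b1 K700E/+ cells (3 libraries) and Sf3b1 +/+ cells (3 libraries), both edited from the same line with a hygromycin cassette that was later removed. The samples of both genotypes without estradiol were left out. Each genotype was represented by 1 clone, so genotype and clone cannot be told apart. The study states in general that experiments in the erythroblast lines were repeated independently, but the labels tie no library to a culture, so the spread that p-values rest on is that among these libraries and may be technical.

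An intron is removed by the spliceosome after its 5′ splice site, its branch point and its 3′ splice site, which ends in AG, have been recognised. SF3B1 is the subunit of the U2 small nuclear ribonucleoprotein that holds the branch point, and the K700E substitution, frequent in myelodysplastic syndromes with ring sideroblasts, is known for the use of cryptic AG dinucleotides upstream of the normal acceptor. Transcripts that keep an intron can be held in the nucleus or degraded by nonsense-mediated decay, and programmed retention is a known feature of late erythroid differentiation.

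The 3′ ends of selected introns are shown because the acceptor is the site that the U2 particle serves. Abcc5, Tcirg1 and Ap1g2 held introns with large falls of retention, Ikbkb and Clk2 held neighbouring acceptors that share 1 donor side, Sf3b1 is the edited gene, and Nabp1, Rps12 and Zdhhc4 held introns that were retained more. Each run gives 27 intron bases and 3 exon bases, 5′ to 3′, and the capitals mark the AG that ends the intron. The runs come from GENCODE M21 transcripts that keep the intron, matched by gene and intron length, and the positions are those of the event table on GRCm39.
Abcc5, chr16:20221085-20223315, minus strand: ggaccagtgacagaagctgttctttAGaat
Tcirg1, chr19:3953173-3953339, minus strand: gcagcccgcctccagccctgttggcAGttt
Ap1g2, chr14:55338633-55338851, minus strand: cctctcacaggccacacggtggcccAGtcg
Ikbkb, chr8:23159747-23161646, minus strand: tcccctctgacaactgtttgtttccAGttc
Ikbkb, chr8:23159742-23161646, minus strand: tctgacaactgtttgtttccagttcAGgag
Clk2, chr3:89076231-89076921, plus strand: gctccgaccccccccaccccccgacAGcag
Clk2, chr3:89076231-89076924, plus strand: ccgaccccccccaccccccgacagcAGcac
Clk2, chr3:89076231-89077355, plus strand: ccccgaccctactttctttcgtttcAGatg
Sf3b1, chr1:55053722-55054027, minus strand: ttgtcctgttgctgttcttttctgcAGgag
Nabp1, chr1:51509086-51510129, minus strand: tatctacctacttatttttactttcAGtaa
Rps12, chr10:23661903-23662522, minus strand: gtttcacctttgagttttgcattttAGgcg
Zdhhc4, chr5:143310154-143310639, minus strand: cactttggccttgtttaacccttacAGgag

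Between the bases 4 and 20 upstream of the junction, pyrimidines made up 52.94% in Abcc5, 64.71% in Tcirg1 and 47.06% in Ap1g2, and 76.47% in Sf3b1 and 70.59% to 88.24% in Clk2. The median was 76.47% over the 1131 tested introns with a sequence and also over the 61 that fell, so the low values of the first 3 are not typical of the falls. The nearest AG upstream of the one that ends the intron lay 11 nt away in Abcc5, 12 nt in Tcirg1 and 17 nt in Ap1g2, but 65 nt in Sf3b1 and 3 to 154 nt in Clk2. The letters AG, read on the transcript strand, occurred 6 to 25 nt upstream in 37.8% of the introns with a sequence. That share was 44.3% of the 61 introns whose retention fell, 4 of the 9 whose retention rose, and 37.3% of the 1061 without a call, and no test was made of the difference. Of the introns at or above the median pyrimidine share 5.61% fell, and of those below it 5.17%.

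For each event the authors counted reads of the retained path and of the spliced path. In events other than intron retention these are the longer and the shorter path. Percent spliced in (PSI), the fraction retained, was the share of the retained path after division of the reads of each path by its length. A member had a median of 185 to 226 reads per library over both paths, and 2883 members had at least 10 reads in every library and were tested. The other 22 were not tested. Lengths ran from 150 nt to 7180 nt in Cyhr1, with a median of 385 nt. Introns just above the length limit (150 to under 160 nt, 95 tested) had a median PSI of 0.14 in Sf3b1 K700E/+, against 0.179 in Sf3b1 +/+ cells, while annotated introns just below it (140 to under 150 nt, 95 tested) had 0.168 and 0.20. The event table gave GT/AG ends for 2689 members, GC/AG for 42 and AT/AC for 6. It gave CT/AC, the reverse complement of GT/AG, for 53 members and other or several pairs for 115, and of the 53, whose sites fit the strand opposite to the listed gene, 6 fell (11.3%). It marked 1582 members as complex, 118 were listed under more than 1 gene, and 876 of those tested overlapped another member, so that members are not independent of each other.

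The gene table summed to between 44045337 and 50077827 reads in the libraries of Sf3b1 K700E/+, and to between 38785471 and 40702174 in those of Sf3b1 +/+. The counts of Sf3b1 itself were 756, 766 and 742 CPM (counts scaled to the library total) in Sf3b1 K700E/+ and 741, 738 and 763 CPM in Sf3b1 +/+ libraries (adjusted p = 0.858 in edgeR), which checks no label because the edit changes a codon. Gata1 was at 322, 323 and 315 CPM in Sf3b1 K700E/+ and at 149, 175 and 155 CPM in Sf3b1 +/+ libraries (log2 fold change 1.00, adjusted p = 1e-05 in edgeR), and the part of this difference between the clones in the PSI values was not tested. Summed erythroid markers lay between 11090 and 17200 CPM in Sf3b1 K700E/+ and between 12790 and 17260 CPM in Sf3b1 +/+ libraries. Granulocyte and macrophage markers, of which 6 of 20 (among them Elane and S100a8) had no read, summed to 1.45 to 2.03 CPM in Sf3b1 K700E/+ and 14.1 to 41.4 CPM in Sf3b1 +/+ libraries. Megakaryocyte markers summed to 15.4 to 22.5 CPM and 22.4 to 32.7 CPM, and lymphoid markers, 7 of 11 without a read, to at most 0.020 CPM and 0.221 CPM. Fewer cells of a type and less RNA per cell cannot be told apart in such libraries. None of the granulocyte and macrophage, megakaryocyte or lymphoid markers held a member intron, and the part of other cells in the PSI values was not tested.

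More of the longer annotated introns fell than rose in PSI in Sf3b1 K700E/+ cells. PSI fell in 160 introns and rose in 31, where a call needed an adjusted p under 0.05 for the path by genotype term in edgeR's quasi-likelihood test and a PSI difference over 0.10. The falls were 5.55% of the tested members, against 4.14% of all 17656 tested events, and the rises were 1.08% against 2.17%. Over all members, called or not, 24.2% lay apart between the genotypes in every library with a lower PSI and 6.10% with a higher one, against 17.0% and 8.93% of all tested events. Of the called introns 156 of the 160 and all 31 lay apart, which the call itself nearly fixes and which is given as a description. The introns that fell had a median PSI of 0.246 in Sf3b1 K700E/+, against 0.435 in Sf3b1 +/+ cells, and lay in 141 gene entries. Those that rose had a median PSI of 0.359 in Sf3b1 K700E/+, against 0.227 in Sf3b1 +/+ cells, and lay in 31 gene entries. The count of falls depended on the tool and was 68 in DESeq2 and 45 in limma on logit PSI, and the count of rises was 13 and 10. In each of these fits the falls outnumbered the rises.

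The median PSI over the members was 0.213, 0.203 and 0.188 in the Sf3b1 K700E/+ libraries, against 0.242, 0.210 and 0.235 in the Sf3b1 +/+ libraries. It was lower in Sf3b1 K700E/+ within each replicate number, but replicate 1 of Sf3b1 K700E/+ lay above replicate 2 of Sf3b1 +/+. The means were 0.201 ± 0.0129 and 0.229 ± 0.0172 (SD, n = 3 each), a difference of -0.0278. It did not exceed the spread in a test that ignored the replicate numbers (exact permutation test, two-sided, p = 0.20, where the smallest p these libraries allow is 0.10). Introns with a PSI over 0.5 made up 25.9% ± 0.895 of the members in Sf3b1 K700E/+ and 28.7% ± 1.46 in Sf3b1 +/+ libraries (SD, n = 3 each, exact permutation p = 0.10). Introns with a PSI under 0.1 made up 24.9% ± 2.90 and 18.3% ± 2.83 (exact permutation p = 0.10). PSI was lower in Sf3b1 K700E/+ in 69.9% of the members and in 59.6% of all events, and the median difference was -0.0210 for the members and -0.0110 for all events.

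**Figure D1:**
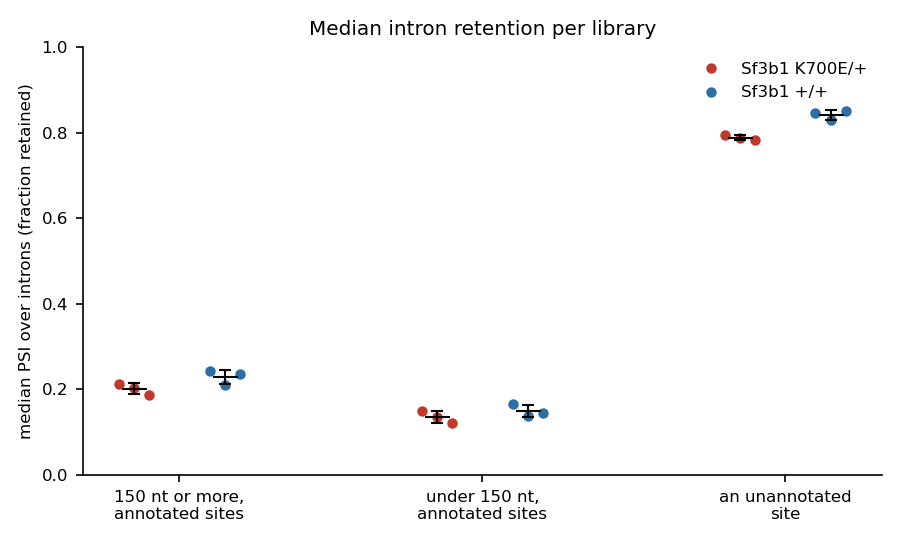
Median PSI (fraction retained, vertical axis) per library for 3 kinds of retained intron, with points for libraries, Sf3b1 K700E/+ left of Sf3b1 +/+, and bars for the mean ± SD of 3 libraries. The longer annotated introns averaged 0.201 in Sf3b1 K700E/+ and 0.229 in Sf3b1 +/+ libraries with overlapping points, while introns with an unannotated site averaged 0.788 and 0.842 without overlap.

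The members were compared with the nearest kinds of event. Shorter annotated introns fell in 3.01% of 1593 tested and rose in 0.565%, and introns with an unannotated site fell in 8.54% of 1230 and rose in 0.732%. The kinds differ in PSI level. In Sf3b1 +/+ libraries the median PSI averaged 0.149 for the shorter, 0.229 for the longer introns and 0.842 for those with an unannotated site. A difference over 0.10 is hard to reach near 0, and the part of the level in these shares was not tested. The median PSI of the longer introns exceeded that of the shorter ones by 0.0642, 0.0672 and 0.0657 in Sf3b1 K700E/+ and by 0.0774, 0.0723 and 0.0890 in Sf3b1 +/+ libraries. This gap was smaller in every Sf3b1 K700E/+ library than in any Sf3b1 +/+ library, with a difference of -0.0139 at the smallest p possible (exact permutation p = 0.10). The gap is absolute and was not scaled to the PSI level of each kind. Against introns with an unannotated site, the median PSI of the members was lower by 0.587 on average in Sf3b1 K700E/+ and by 0.613 in Sf3b1 +/+ libraries (difference of the gaps 0.0257, exact permutation p = 0.10). The fall of the median was thus 0.0278 for the members and 0.0535 for the introns with an unannotated site.

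The 10 largest falls with the genotypes apart lay in Macrod1, Apip, Abcc5, Psrc1, Ermap, Ankrd16, Tcirg1, Cyc1 and Zfp142. In Abcc5, an exporter of cyclic nucleotides, the PSI of a coding-region intron of 2231 nt was 0.135, 0.130 and 0.102 in Sf3b1 K700E/+, against 0.674, 0.768 and 0.673 in Sf3b1 +/+ libraries. The libraries of each genotype lay close together and far from those of the other, with a difference of -0.583 (adjusted p = 2.46e-14 in edgeR). Both paths moved. Reads of the retained path fell by 1.53 ± 0.14 on the log2 scale (± SE) and those of the spliced path rose by 2.56 ± 0.23, while the gene fell by 0.43.

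In Ermap, which encodes the erythroblast membrane protein that carries the Scianna antigens in humans, an intron of 537 nt (chr4:119045519-119046055) had a PSI of 0.275, 0.214 and 0.234 in Sf3b1 K700E/+ and 0.735, 0.652 and 0.692 in Sf3b1 +/+ libraries. The genotypes lay apart (difference -0.452, adjusted p = 1.78e-12 in edgeR). The retained path had 1123 reads over the 3 libraries of Sf3b1 K700E/+ and 3398 over those of Sf3b1 +/+, the spliced path had 451 and 193, and the level of the gene did not pass the test (log2 fold change 0.15). Psrc1, a microtubule-binding protein of the spindle, had a PSI of 0.351, 0.345 and 0.298 in Sf3b1 K700E/+ and 0.794, 0.889 and 0.866 in Sf3b1 +/+ libraries at an intron of 158 nt. All 3 values of Sf3b1 K700E/+ were below every value of Sf3b1 +/+ (adjusted p = 4.92e-12 in edgeR), and again both paths passed, the retained one lower and the spliced one higher. The introns of Ermap and Psrc1, like those of Cyc1, Mettl27 and Ehmt2 below, hold another annotated exon of the gene. Reads of such an exon count as retained, so retention and use of that exon cannot be told apart there.

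In some genes a single path moved. Ankrd16, an ankyrin repeat protein, had a PSI of 0.119, 0.178 and 0.233 in Sf3b1 K700E/+ and 0.631, 0.575 and 0.658 in Sf3b1 +/+ libraries at an intron of 1579 nt (adjusted p = 5.81e-07 in edgeR). Retained reads numbered 175 in Sf3b1 K700E/+ against 1187 in Sf3b1 +/+ libraries, whereas spliced reads numbered 44 against 34. The fall was on the retained side, and the gene itself was lower (log2 fold change -0.82). Apip, an enzyme of methionine salvage, had a PSI of 0.288, 0.338 and 0.261 in Sf3b1 K700E/+ and 0.946, 1.00 and 1.00 in Sf3b1 +/+ libraries at an intron of 525 nt. Here 101 spliced reads in Sf3b1 K700E/+ stood against 1 in Sf3b1 +/+ libraries, and 316 retained reads against 371, so that the change was on the spliced side. Cyc1, the cytochrome c1 subunit of respiratory complex III, had the same form at an intron of 564 nt in its 5′ untranslated region, with a PSI of 0.601, 0.524 and 0.593 in Sf3b1 K700E/+ and 1.00, 0.978 and 0.951 in Sf3b1 +/+ libraries. Spliced reads numbered 81 in Sf3b1 K700E/+ against 3 in Sf3b1 +/+ libraries.

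The change of the gene was larger in Tcirg1 and in Macrod1. Tcirg1, a subunit of the vacuolar proton pump, had a PSI of 0.161, 0.0719 and 0.105 in Sf3b1 K700E/+ and 0.561, 0.547 and 0.469 in Sf3b1 +/+ libraries at a coding-region intron of 167 nt (adjusted p = 1.42e-05 in edgeR). The gene was a differentially expressed gene (DEG, adjusted p under 0.05 and an absolute log2 fold change over 1), at 9.92, 9.75 and 10.6 CPM in Sf3b1 K700E/+ and 35.1, 43.0 and 42.5 CPM in Sf3b1 +/+ libraries. Both paths fell, the retained one to 16 reads in Sf3b1 K700E/+ against 313 in Sf3b1 +/+ libraries and the spliced one to 43 against 94. Ap1g2, a subunit of an adaptor of vesicle transport, fell by its retained path alone at an intron of 219 nt, with a PSI of 0.0447, 0.0362 and 0.0410 in Sf3b1 K700E/+ and 0.203, 0.228 and 0.212 in Sf3b1 +/+ libraries and with 63 and 399 retained and 400 and 399 spliced reads. Macrod1, an ADP-ribosyl hydrolase, held 2 introns with a PSI of 0.124 ± 0.00679 and 0.138 ± 0.0206 in Sf3b1 K700E/+ (SD, n = 3) and of 1 in every Sf3b1 +/+ library. The gene table listed 179, 170 and 152 counts of Macrod1 in Sf3b1 K700E/+ and 0 in all Sf3b1 +/+ libraries, and these 2 introns had no spliced read there, so that their PSI of 1 says nothing of how a Macrod1 transcript was spliced in Sf3b1 +/+ cells. Zfp142, a zinc finger protein, had 2 spliced reads in Sf3b1 +/+ libraries, all in replicate 2. Its call (difference -0.364, adjusted p = 0.0289 in edgeR) was lost without replicate 2 or 3 of Sf3b1 K700E/+ (adjusted p = 0.11 and 0.055) and without replicate 1 or 3 of Sf3b1 +/+ (adjusted p = 0.191 and 0.139).

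Among the largest rises were Irak1, Pdcd11, Zdhhc4, Xpo6, the shared locus of Snhg3 and Gm17300, Carm1, Mettl27, Zfp512b and Rpsa. Pdcd11, a factor of ribosomal RNA processing, had a PSI of 0.235, 0.237 and 0.212 in Sf3b1 K700E/+, against 0.00905, 0.00411 and 0.00875 in Sf3b1 +/+ libraries at a coding-region intron of 674 nt (chr19:47096188-47096861). The intron was close to fully spliced in Sf3b1 +/+ libraries only (adjusted p = 2.10e-14 in edgeR). Retained reads numbered 734 in Sf3b1 K700E/+ and 19 in Sf3b1 +/+ libraries, spliced reads 268 and 286, and the gene did not pass the test (log2 fold change 0.17). Snhg3, a host gene of small nucleolar RNAs, had a PSI of 0.299, 0.238 and 0.262 in Sf3b1 K700E/+ and 0.0827, 0.0633 and 0.0712 in Sf3b1 +/+ libraries at an intron of 420 nt (adjusted p = 2.55e-12 in edgeR). In this case the spliced path fell, to 1887 reads in Sf3b1 K700E/+ against 6340 in Sf3b1 +/+ libraries, and the retained path had 4481 and 3220 reads. The level of the Snhg3 gene was also lower in Sf3b1 K700E/+ (log2 fold change -0.89, adjusted p = 0.00177 in edgeR). The locus is listed for both genes on opposite strands, and the ends read GT/AG on that of Snhg3.

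Zfp512b, a zinc finger protein, had a PSI of 0.283, 0.273 and 0.266 in Sf3b1 K700E/+ and 0.0737, 0.123 and 0.0774 in Sf3b1 +/+ libraries at an intron of 288 nt (adjusted p = 0.000889 in edgeR). Carm1, an arginine methyltransferase, had 0.325, 0.317 and 0.262 in Sf3b1 K700E/+ and 0.177, 0.0806 and 0.0694 in Sf3b1 +/+ libraries (adjusted p = 0.00164 in edgeR, 0.0719 in limma). The ends of this intron read CT/AC on the strand of Carm1 and GT/AG on the opposite one, so that its splice sites fit the strand opposite to Carm1. The genotypes lay apart at both introns. Rpsa and Rps12, proteins of the small ribosomal subunit, had higher PSI at an intron each, with 0.792 ± 0.0263 in Sf3b1 K700E/+ and 0.616 ± 0.0165 in Sf3b1 +/+ libraries for Rpsa and 0.667 ± 0.0541 and 0.504 ± 0.0428 for Rps12 (SD, n = 3 each, adjusted p = 0.00189 and 0.000888 in edgeR). The Rpsa intron holds an annotated small nucleolar RNA, Gm26448, and any reads of it would count as retained. With reads over the exon-intron boundaries alone Rpsa was no longer called (difference 0.0996, adjusted p = 0.381 in edgeR).

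Other large rises lost their call when single libraries were left out. Irak1, a kinase of interleukin 1 signalling, had a PSI of 0.860, 0.697 and 0.827 in Sf3b1 K700E/+ and 0.571, 0.311 and 0.556 in Sf3b1 +/+ libraries (difference 0.315, adjusted p = 0.0186 in edgeR). Its call was lost without replicate 1 or 3 of Sf3b1 K700E/+ (adjusted p = 0.102 and 0.0737) and without replicate 2 of Sf3b1 +/+ (0.174). Xpo6, the exportin of actin, had 0.865 ± 0.0422 in Sf3b1 K700E/+ and 0.647 ± 0.0548 in Sf3b1 +/+ libraries (SD, n = 3 each) and was lost in edgeR without replicate 3 of Sf3b1 K700E/+ (adjusted p = 0.0774) and without replicate 1 or 3 of Sf3b1 +/+ (0.057 and 0.107). Zdhhc4, a palmitoyltransferase, had 0.683 ± 0.132 in Sf3b1 K700E/+ and 0.466 ± 0.0443 in Sf3b1 +/+ libraries and was lost in edgeR without replicate 1 or 2 of Sf3b1 K700E/+ (adjusted p = 0.0855 and 0.289) and without replicate 1 or 3 of Sf3b1 +/+ (0.0954 and 0.13). Mettl27, a methyltransferase-like protein, had 0.937 ± 0.00433 in Sf3b1 K700E/+ and 0.746 ± 0.0903 in Sf3b1 +/+ libraries and lost its call in edgeR when Sf3b1 K700E/+ replicate 3 (adjusted p = 0.0589) or Sf3b1 +/+ replicate 2 (0.0966) was left out.

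**Figure D2:**
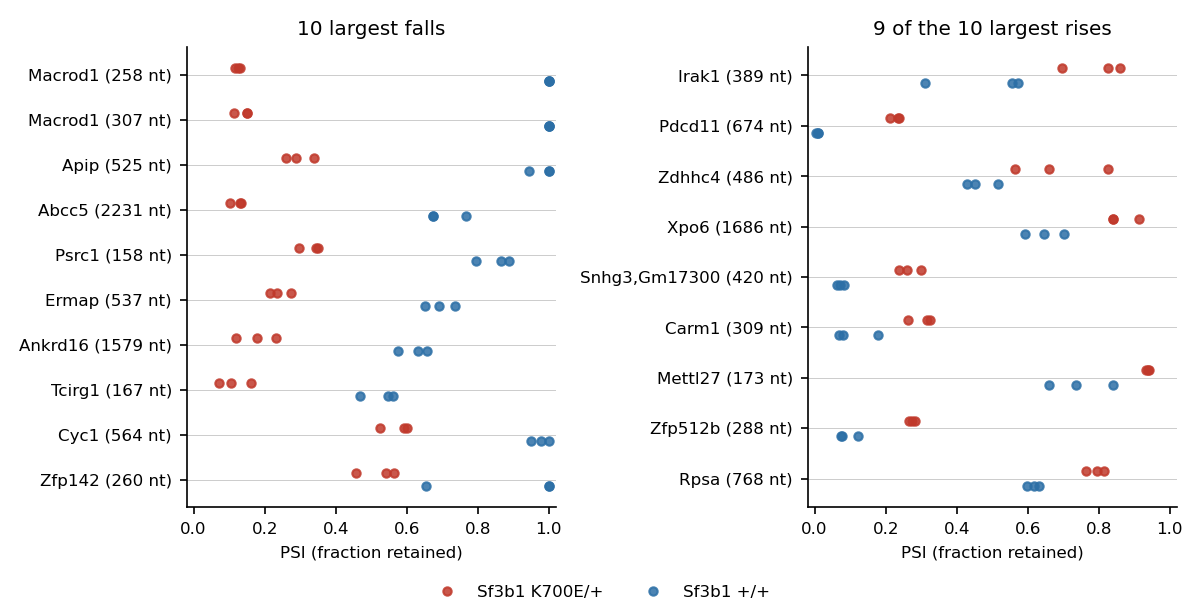
PSI (fraction retained, horizontal axis) of the 10 largest falls and of 9 of the 10 largest rises with the genotypes apart, 1 row per intron with its length, and 1 point per library, Sf3b1 K700E/+ above Sf3b1 +/+. In Abcc5 the Sf3b1 K700E/+ points lie at 0.102 to 0.135 and the Sf3b1 +/+ points at 0.673 to 0.768, and in Pdcd11 they lie at 0.212 to 0.237 and at 0.00411 to 0.00905.

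The reads of each path were tested on their own. The shares over all events include other kinds of event, in which the longer path stands for the retained one. Over the members, reads of the retained path fell in 704 (24.4%) and rose in 253 (8.78%) by edgeR, against 14.8% and 12.8% of all events. Reads of the spliced path fell in 281 (9.75%) and rose in 380 (13.2%), against 7.15% and 11.3% of all events. Without Sf3b1 +/+ replicate 2 the number of members with fewer spliced reads was 183. The median log2 fold change of the members was -0.19 for the retained path and 0.05 for the spliced path, and over all events it was -0.03 and 0.09.

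Among the 160 introns with a fall of PSI, the retained path fell in 95, rose in 6 and did not pass in 59. The spliced path rose in 91, fell in 3 and did not pass in 66. Both changes together, fewer retained and more spliced reads, were found in 33 introns, among them Abcc5, Ermap and Psrc1. A further 59, such as Ankrd16, had a call for the retained path alone, 52, such as Cyc1, for the spliced path alone, and 7 for neither path. In 6 introns both paths rose, among them Pdia2, a protein disulfide isomerase, whose gene was also higher, and in 3, such as Tcirg1, both fell. Of the 31 introns with a rise, 13 had a call for the retained path alone, 9 for the spliced path alone and 4 for both, the retained one higher and the spliced one lower. Both paths fell in 2 of these 31, and neither path passed in 3.

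**Figure D3:**
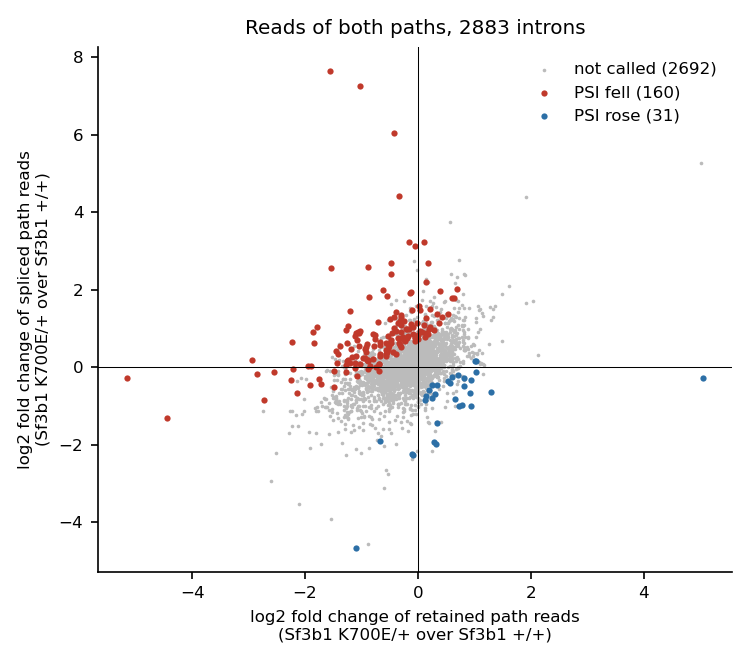
Log2 fold change (Sf3b1 K700E/+ over Sf3b1 +/+) of the retained path reads on the horizontal axis and of the spliced path reads on the vertical axis, 1 point per tested intron. The 160 introns whose PSI fell lie above and left of the diagonal and the 31 whose PSI rose below and right of it as PSI is built from both, and the members have a median of -0.19 on the horizontal axis and 0.05 on the vertical axis.

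Splicing factor genes held 118 tested members in 59 genes. Of these 14 fell and none rose, which is 11.9% against 5.55% of all members, with a median PSI difference of -0.0218 against -0.0210 over all members. DESeq2 gave 4 falls and limma 0, also without a rise, and at an unadjusted p under 0.05 30 were lower and 4 higher in edgeR and 19 lower and 1 higher in limma. In edgeR the falls were 9 and 8 when replicate 2 or 3 of Sf3b1 K700E/+ was left out. They were 8 and 7 when replicate 1 or 3 of Sf3b1 +/+ was left out, and without that replicate 3 there was also 1 rise. Reads over the exon-intron boundaries alone gave 11 falls and 1 rise. Several of the 14 share a gene, with 3 each in Clk2 and Prpf4b. No further test was made of the list. The list was written with earlier results of these data known.

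Clk4, a kinase of SR proteins, had a PSI of 0.376, 0.344 and 0.211 in Sf3b1 K700E/+ and 0.590, 0.604 and 0.537 in Sf3b1 +/+ libraries at an intron of 537 nt within a transcript annotated for decay (adjusted p = 0.00837 in edgeR). The genotypes did not overlap. Clk2, a kinase of the same family, held 3 introns that fell, all with the same start and with the acceptors printed above, which lie 3 nt apart in the first pair and further downstream in the third. Since they share most of their retained reads, the 3 are not separate observations. The intron with the first acceptor had a PSI of 0.160, 0.124 and 0.111 in Sf3b1 K700E/+ and 0.255, 0.231 and 0.237 in Sf3b1 +/+ libraries. Retained reads numbered 661 in Sf3b1 K700E/+ against 1068 in Sf3b1 +/+ libraries, and spliced reads 460 against 359. Its difference was under the limit of a call without Sf3b1 K700E/+ replicate 3 (-0.099), with effective lengths (-0.0923) and with the deposited PSI (-0.0833), and limma did not call it (adjusted p = 0.0869). Prpf4b, a further kinase of the spliceosome, held 7 members, of which 3 fell, a pair of them with a shared start, and 6 were lower in Sf3b1 K700E/+. The one of 1794 nt had a PSI of 0.254, 0.240 and 0.233 in Sf3b1 K700E/+ and 0.437, 0.375 and 0.407 in Sf3b1 +/+ libraries.

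Srrm1, a coactivator of splicing, had a PSI of 0.143, 0.108 and 0.128 in Sf3b1 K700E/+ and 0.317, 0.223 and 0.444 in Sf3b1 +/+ libraries (adjusted p = 0.000281 in edgeR). Rbm39, an RNA-binding cofactor of splicing, had 0.440, 0.401 and 0.457 in Sf3b1 K700E/+ and 0.555, 0.590 and 0.690 in Sf3b1 +/+ libraries, with 253 spliced reads in Sf3b1 K700E/+ and 132 in Sf3b1 +/+ libraries. In both genes the genotypes lay apart. In Sf3b1 the intron of 306 nt, which lies in a transcript annotated for decay, had a PSI of 0.495, 0.394 and 0.524 in Sf3b1 K700E/+ and 0.614, 0.517 and 0.652 in Sf3b1 +/+ libraries. Across numbers the genotypes overlapped, while within the replicate numbers the differences were -0.119, -0.123 and -0.127 (adjusted p = 0.00125 in edgeR with the replicate block). Without the block, the call (difference -0.123, adjusted p = 0.0369 in edgeR) was lost without replicate 2 of Sf3b1 K700E/+ (adjusted p = 0.306) and without replicate 1 or 3 of Sf3b1 +/+ (0.111 and 0.229). Introns of Hnrnpu, Prpf39 and U2af1l4 and a second intron of Clk4 made up the rest. Srsf1, a founding SR protein, had a higher PSI at an intron of 882 nt (0.901 ± 0.0288 in Sf3b1 K700E/+ and 0.833 ± 0.0536 in Sf3b1 +/+ libraries, SD, n = 3 each, adjusted p = 0.0109 in edgeR), with a difference under the limit of a call.

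**Figure D4:**
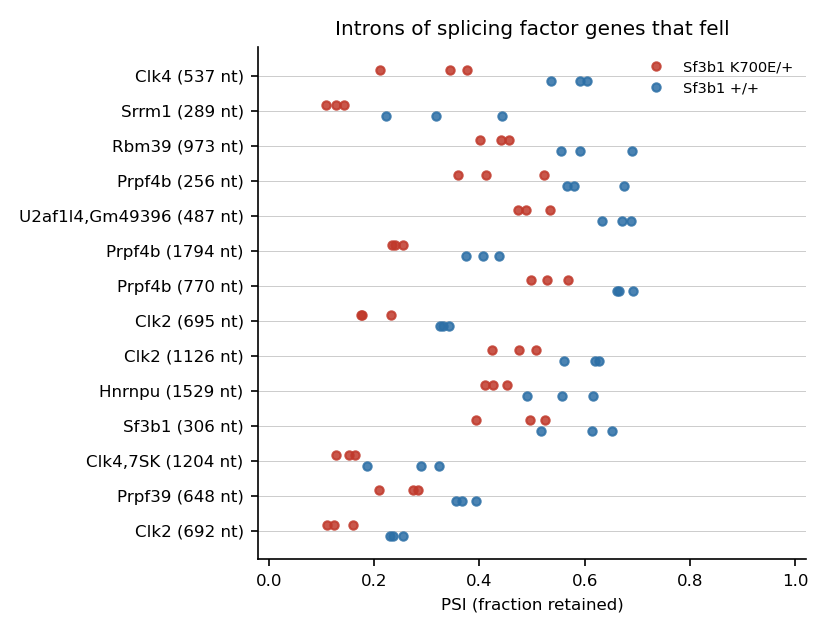
PSI (fraction retained, horizontal axis) of the 14 introns of splicing factor genes that fell, 1 row per intron with its length and 1 point per library, Sf3b1 K700E/+ above Sf3b1 +/+. In Srrm1 the Sf3b1 K700E/+ points lie at 0.108 to 0.143 and the Sf3b1 +/+ points at 0.223 to 0.444, and Sf3b1 is the one row of the 14 with overlap between the genotypes.

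Genes of DNA repair held 250 tested members, of which 7 fell (2.80%, against 5.55% of all members) and 3 rose, with a median difference of -0.0206. Cinp, which binds the ATR-interacting protein, had a PSI of 0.228, 0.240 and 0.211 in Sf3b1 K700E/+ and 0.401, 0.390 and 0.401 in Sf3b1 +/+ libraries at an intron of 645 nt (adjusted p = 0.00043 in edgeR), with 299 spliced reads in Sf3b1 K700E/+ and 133 in Sf3b1 +/+ libraries. The genotypes lay apart. The other falls were in Nfrkb, Alkbh3, Eme2, Ap5z1, Rad54l and Kmt5c, and the rises in Pwwp3a, the shared locus of Recql and Pyroxd1, and Nabp1. In edgeR the 7 falls were 2 when replicate 3 of Sf3b1 K700E/+ was left out, 2 or 4 when replicate 1 or 3 of Sf3b1 +/+ was left out, and 11 with the replicate block, which gave 6 rises. DESeq2 gave 2 falls and no rise (8 were higher at an unadjusted p under 0.05), and limma gave 3 and 1. The 3 rises were 2 without replicate 1 of Sf3b1 K700E/+ and also without replicate 2 of Sf3b1 +/+. Nabp1, a single-stranded DNA-binding subunit of the SOSS complex, had a PSI of 1.00, 1.00 and 0.962 in Sf3b1 K700E/+ and 0.882, 0.816 and 0.790 in Sf3b1 +/+ libraries, and its gene was a DEG at a log2 fold change of -1.58. Spliced reads numbered 1 in Sf3b1 K700E/+ against 31 in Sf3b1 +/+ libraries.

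Erythroid regulators and red cell genes held 32 tested members, of which 2 fell, a share of 6.25% against 5.55% of all members, and none rose in edgeR (1 was higher at an unadjusted p under 0.05) or in DESeq2 and limma, which gave 1 and 2 falls. Epb41, protein 4.1 of the red cell membrane skeleton, had a PSI of 0.311, 0.231 and 0.293 in Sf3b1 K700E/+ and 0.469, 0.550 and 0.549 in Sf3b1 +/+ libraries at an intron of 1147 nt. Its call (adjusted p = 0.00938 in edgeR) did not hold when Sf3b1 K700E/+ replicate 2 (0.0663) or Sf3b1 +/+ replicate 3 (0.0524) was left out. Kel, which carries the Kell antigens in humans, had 0.193, 0.184 and 0.203 in Sf3b1 K700E/+ and 0.377, 0.317 and 0.388 in Sf3b1 +/+ libraries at an intron of 163 nt (adjusted p = 1.94e-05 in edgeR). At both introns the genotypes lay apart. The erythropoietin receptor gene Epor held 4 members without a call. The one of 337 nt had a PSI of 0.0514, 0.0602 and 0.0413 in Sf3b1 K700E/+ and 0.0986, 0.0815 and 0.0731 in Sf3b1 +/+ libraries, lower in every Sf3b1 K700E/+ library but by 0.0334 on average, under the limit of a call (adjusted p = 0.00579 in edgeR).

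Chromatin modifier genes held 48 tested members, of which 3 fell in edgeR (6.25%, against 5.55% of all members) and none in DESeq2 or limma (9 and 12 were lower at an unadjusted p under 0.05). Genes of DNA replication (7 members), the cell cycle (26), RNA helicases (12), nonsense-mediated decay (6), heme synthesis and iron (11), R-loop resolution (31) and aminoacyl-tRNA synthetases (7) held no member called by edgeR, DESeq2 or limma. Of the 99 different members of these 7 lists, 14 were lower and 5 higher at an unadjusted p under 0.05 in edgeR, 6 and 3 in DESeq2 and 7 and 2 in limma, and 3 fell with the replicate block. Known human targets of SF3B1 mutations held 19 tested members, of which Abcc5 and Sf3b1 fell, a share of 10.5% against 5.55% of all members that rests on 2 introns, and the call of Sf3b1 was lost in several fits given above. Ehmt2, a histone H3 lysine methyltransferase, had a PSI of 0.373, 0.404 and 0.474 in Sf3b1 K700E/+ and 0.626, 0.591 and 0.705 in Sf3b1 +/+ libraries (adjusted p = 0.00459 in edgeR). Ppox, the enzyme that oxidises protoporphyrinogen, had a higher PSI in Sf3b1 K700E/+ at an intron of 931 nt (0.554, 0.580 and 0.518, against 0.476, 0.481 and 0.418 in Sf3b1 +/+ libraries) with a difference of 0.0926, just under the limit of a call. Reads of both of its paths fell.

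Several genes held more than 1 intron that fell, and Ikbkb and Rbm19 were chosen from them after their values were seen. Ikbkb, the kinase that phosphorylates inhibitors of NF-kappaB, held 7 members, all lower in Sf3b1 K700E/+, and 3 fell. The intron of 1900 nt had a PSI of 0.0679, 0.0345 and 0.0280 in Sf3b1 K700E/+ and 0.153, 0.183 and 0.170 in Sf3b1 +/+ libraries (adjusted p = 1.68e-07 in edgeR), and an acceptor 5 nt downstream gave a second event on nearly the same retained reads. At that second acceptor the genotypes overlapped, with 0.752 in Sf3b1 K700E/+ replicate 1 and 18 spliced reads in Sf3b1 K700E/+ against 10 in Sf3b1 +/+ libraries. The downstream neighbour of 510 nt had 0.109, 0.0956 and 0.127 in Sf3b1 K700E/+ and 0.281, 0.215 and 0.234 in Sf3b1 +/+ libraries.

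Rbm19, a factor of ribosome biogenesis, held 4 members and all fell. Its intron of 789 nt had a PSI of 0.0659, 0.132 and 0.174 in Sf3b1 K700E/+ and 0.231, 0.334 and 0.531 in Sf3b1 +/+ libraries, apart between the genotypes but with wide spread. The gene Gm10390, which lies on the opposite strand within Rbm19, held 2 members that also fell. Their ends read CT/AC on the strand of Gm10390, which is GT/AG on that of Rbm19, so the splice sites are those of an intron on the strand of Rbm19. The level of Gm10390 was 4.75, 14 and 15.9 CPM in Sf3b1 K700E/+ and 14.7, 32.2 and 30.7 CPM in Sf3b1 +/+ libraries. In both genotypes replicate 1 was the lowest in the PSI of that Rbm19 intron and in the level of Gm10390. Whether path reads were assigned by strand is not given in the sources used here, so retained Rbm19 RNA and reads of Gm10390 cannot be told apart. Of 99 genes with several members and at least 1 fall, every member fell in 3, and in Uba7 1 of 10 fell and 9 were lower.

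Most of the introns that fell lay in a gene that did not meet the criteria of a DEG. Of 1591 host genes tested on their own, 22 (1.38%) were DEGs higher in Sf3b1 K700E/+ and 42 (2.64%) lower, against 4.07% and 6.24% of all 12547 genes. Among the 131 tested host genes of introns that fell, 4 were DEGs higher and 6 lower. Both shares lay above those over all host genes and below those over all genes, and the differences were not tested. At an adjusted p under 0.05 in edgeR, 39 of the 131 passed higher and 38 lower. Over all host genes 23.6% passed higher and 27.7% lower, against 21.3% and 23.1% of all genes. Over 2759 members the correlation of the log2 fold change of the host gene with the PSI difference was -0.167 (Pearson, across introns, which share genes and libraries). It includes the 2 introns of Macrod1, extreme in both values (gene log2 fold change 10.3), and was not computed without them. No pattern over the members can therefore be read from it. The DEGs higher were Macrod1, Acp5, Pdia2 and Wdr62, and those lower were Tcirg1, Gm10390, Rbak, Clcn2, Tmem63b and Icam1. Gm10390 is counted as the event table lists it, although the ends of its introns fit the opposite strand.

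Pdia2 had a PSI of 0.155, 0.0879 and 0.111 in Sf3b1 K700E/+ and 0.297, 0.220 and 0.232 in Sf3b1 +/+ libraries, with 752 retained reads in Sf3b1 K700E/+ and 408 in Sf3b1 +/+ libraries and 718 and 156 spliced reads. The lower PSI thus came with more reads of the intron. Icam1, an adhesion molecule, had 0.0581, 0.0590 and 0.0465 in Sf3b1 K700E/+ and 0.235, 0.145 and 0.154 in Sf3b1 +/+ libraries (adjusted p = 0.00109 in edgeR), with reads of both paths lower, and without Sf3b1 +/+ replicate 1 its difference of -0.0947 was under the limit. Rbak, a zinc finger repressor that binds the retinoblastoma protein, had 0.587, 0.447 and 0.600 in Sf3b1 K700E/+ and 0.807, 0.729 and 0.741 in Sf3b1 +/+ libraries and was lost in edgeR without Sf3b1 K700E/+ replicate 2 (adjusted p = 0.144). Tmem63b, a mechanosensitive channel, was lost in edgeR without any library except Sf3b1 +/+ replicate 2 (adjusted p = 0.047 with all libraries, 0.0554 to 0.199 without each of the other 5).

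Median PSI differed with the place of the intron. The place was read from the best-ranked transcript that splices the intron, with principal and coding ones ranked first. An intron was placed in a decay or noncoding transcript only if no better-ranked transcript spliced it. The levels of these classes may partly follow from that, which was not tested. Of the members, 2582 matched an intron of GENCODE M21, of which 1843 lay in a coding region. The median PSI of coding-region introns was 0.145, 0.133 and 0.122 in Sf3b1 K700E/+ and 0.173, 0.146 and 0.159 in Sf3b1 +/+ libraries. Introns of the 5′ untranslated region (270) had 0.517, 0.50 and 0.501 in Sf3b1 K700E/+ and 0.573, 0.541 and 0.558 in Sf3b1 +/+ libraries, above the coding ones in every library. The genotypes lay apart for both places (exact permutation p = 0.10 each). Introns of transcripts annotated for decay (190) had 0.622 ± 0.0184 in Sf3b1 K700E/+ and 0.661 ± 0.0213 in Sf3b1 +/+ libraries (SD, n = 3 each, exact permutation p = 0.20). Of them 10.6% fell, against 4.70% of the coding-region introns. These places differ in PSI level, with which the share of falls also varied.

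**Figure D5:**
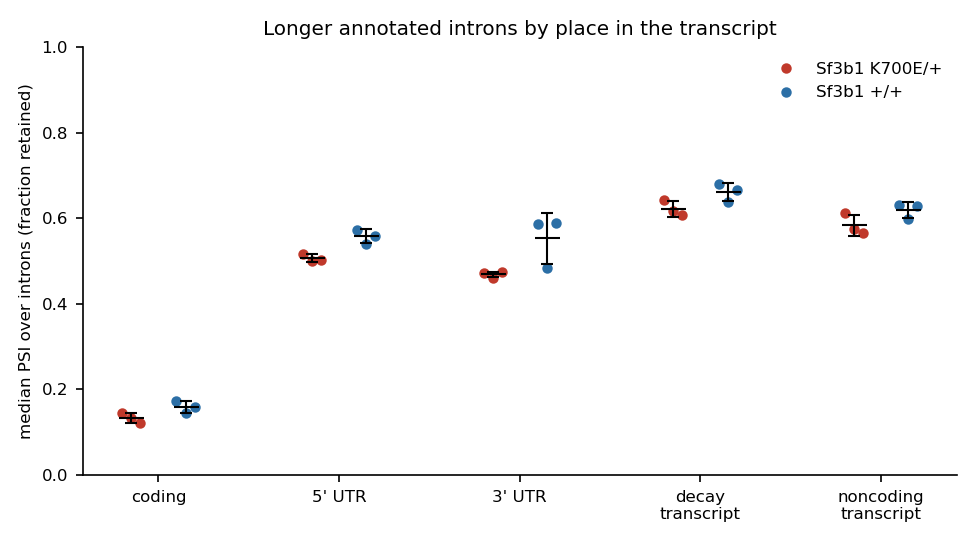
Median PSI (fraction retained, vertical axis) per library of the members by place in the matched transcript, with points for libraries, Sf3b1 K700E/+ left of Sf3b1 +/+, and bars for the mean ± SD of 3 libraries. Coding-region introns averaged 0.134 in Sf3b1 K700E/+ and 0.159 in Sf3b1 +/+ libraries, and the lowest value of any other place was 0.461.

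Falls were 4.30% of the introns under 300 nt, 5.19% of those from 300 to under 600 nt and 7.39% of those of 600 nt or more. Median PSI also differed between these lengths, at 0.206, 0.227 and 0.279 in Sf3b1 +/+ cells. A longer intron also has more positions for retained reads. The part of either in the shares by length was not tested. Introns with another annotated exon inside them, 277 in number, fell in 11.2%, against 4.77% of the 2285 without one, and complex events fell in 6.93% against 3.89% of simple ones. Falls were rare where little was retained, with 0.508% of the introns at a mean PSI under 0.1, 7.20% at 0.1 to 0.5 and 6.18% at 0.5 or more, since a difference over 0.10 is hard to reach near 0. These shares were not tested against each other. Of 51 introns with a small nucleolar RNA inside, 2 fell and 2 rose, or 3.92% each, against 5.55% and 1.08% of all members. Each of these shares rests on 2 introns. The median PSI of the 51 was 0.186 ± 0.0146 in Sf3b1 K700E/+ and 0.167 ± 0.0166 in Sf3b1 +/+ libraries (SD, n = 3 each, exact permutation p = 0.30).

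The most retained members with at least 50 reads in every library lay in Tardbp, Eef1b2, Ranbp6, Dcaf11 and the shared locus of Gm20427 and Slc39a7. Tardbp, which encodes the RNA-binding protein TDP-43, had a PSI of 0.965, 0.964 and 0.948 in Sf3b1 K700E/+ and 0.983, 0.973 and 0.977 in Sf3b1 +/+ libraries at an intron of 839 nt, where spliced reads were 83 in Sf3b1 K700E/+ and 35 in Sf3b1 +/+ libraries. The difference passed the test (adjusted p = 0.0471 in edgeR) but at -0.0188 was far under the limit of a call. Eef1b2, a translation elongation factor, had 0.977 ± 0.00489 in Sf3b1 K700E/+ and 0.985 ± 0.00635 in Sf3b1 +/+ libraries (SD, n = 3 each). The most deeply covered members lay in Prkar2b, Glo1 and Rpl12. Glo1, the glyoxalase that detoxifies methylglyoxal, had 36986 retained reads in Sf3b1 K700E/+ and 47396 in Sf3b1 +/+ libraries and a PSI of 0.732 ± 0.0211 and 0.751 ± 0.0235 (adjusted p = 0.639 in edgeR). Prkar2b, a regulatory subunit of protein kinase A, had 0.879 ± 0.0102 in Sf3b1 K700E/+ and 0.865 ± 0.0258 in Sf3b1 +/+ libraries, and Rpl12, a protein of the large ribosomal subunit, had 0.0157 ± 0.00224 and 0.020 ± 0.00524.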

How the data were processed

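Poly(A) RNA of 6 libraries, 3 per genotype, was sequenced as stranded paired-end reads. The authors deposited whole-number read counts of both paths of each event, called from the reads of the 6 libraries with KisSplice and placed on GRCm39 with KisSplice2refgenome, a PSI fraction per event, and gene counts from STAR 2.7.9, for which their notes also name DESeq2 1.30.1. Columns with the authors' own comparisons were not used. The 2 read files of a library were summed.

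Events were tested where both paths together had 10 or more reads in each of the 6 libraries, with edgeR 4.0.16 (R 4.3.3) in a quasi-likelihood fit of path by genotype with library terms over all events, with Benjamini-Hochberg adjustment. Calls needed an adjusted p under 0.05 and a PSI difference over 0.10. PSI was the retained share after division of the reads by path length. The deposited PSI fractions came closer to effective lengths (50.6% of 34462 values within 0.01, against 7.22% for path lengths), so that the PSI given here exceeds the deposited one by a median of 0.0349. Path reads and genes were tested with edgeR, with the TMM factors of the gene counts. A read inside an intron counts as retained whatever transcript it came from. Library medians were compared by exact permutation tests.

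The introns named were the 10 largest falls and rises with the genotypes apart, the 5 most retained with at least 50 reads in every library, the 3 most deeply covered, up to 4 of lowest adjusted p per gene list, and called introns in DEGs, in known human SF3B1 targets or in genes that the study names. One of these introns is not reported here. The introns and gene lists were chosen with earlier results of these data known. Same-numbered libraries deviated together (r = 0.624, 0.48 and 0.479 over 8771 genes at 5 CPM or more on average), so the numbers were taken to pair the libraries. The main fits and the permutation tests did not use this pairing, which only the replicate block took into account. Alternatives were DESeq2 1.42.0, limma 3.58.1 on logit PSI, a replicate block, other filters and reads, and leaving out each library. The scripts were tested on simulated data with a fixed spread and changes in well-covered introns. There the path fit called 47% of introns with a PSI change of 0.2 and 99% of those with 0.4. An intron without a call may therefore have changed. Acceptor sequences and places came from GENCODE M21, of another build, by gene and intron length, and no coordinate was taken from it.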

Additional observations from a re-analysis of the deposited data

How the results depend on the processing

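Of 160 falls and 31 rises of PSI in edgeR, DESeq2 gave 68 and 13, limma on logit PSI 45 and 10, events that were neither complex nor marked as paralogous or with a SNP 51 and 17, and a PSI difference over 0.20 48 and 5. All 68 falls of DESeq2 and 43 of the 45 of limma were among the 160. Without each library in turn, falls numbered 110 to 165 and rises 24 to 32. Members with fewer retained reads numbered 504 to 667 and with more 169 to 294, those with fewer spliced reads 183 to 297 and with more 282 to 349, and host genes that were DEGs 21 to 24 higher and 34 to 53 lower. The difference of the median PSI was -0.03745 to -0.021. With the replicate block, falls were 199 and rises 39 and held all the introns called without it, with 916 and 350 members with fewer and more retained reads, 395 and 527 with fewer and more spliced reads, and 22 and 42 DEGs among host genes. Reads over the exon-intron boundaries alone gave 125 falls and 33 rises, a scaling of each path by its own TMM factor 116 and 37, and introns of 300 nt or more 114 and 24. Effective lengths (141 and 28), the deposited PSI (139 and 27) and introns of 1 gene with standard sites (146 and 24) were added after the data were seen. The direction of a named intron turned for Ranbp6 1115 (-0.03258 to 0.008836 without each library, above 0 without replicate 1 or 3 of Sf3b1 +/+), Prkar2b 1662 (-0.0003462 to 0.02309, below 0 without replicate 2 of Sf3b1 +/+) and Tars2 (-0.0367 with the deposited PSI). The cause of these shifts was not tested. Depth limits introns with few spliced reads, such as Zfp142 and Apip. Whether both boundaries of an intron were read evenly was not analysed here.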
